A study of Mus musculus with 40 samples.

Results

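SU-Eohyeol pharmacopuncture (SUEHP), an herbal preparation injected at an acupoint, was compared with saline in the spinal cord of mice that had received MPTP, a toxin that damages dopaminergic neurons and is used to model Parkinson's disease. The comparison comprised 8 of the 40 libraries of the series, namely 4 labelled as spinal cord after MPTP and SUEHP (MPTP-SU) and 4 labelled as spinal cord after MPTP (MPTP-Veh), chosen by these labels and by no measured value. The series held 20 midbrain and 20 spinal cord libraries, with 4 replicates in each of 5 groups per tissue, and asked which genes differed with MPTP, with SUEHP, and with SUEHP given together with a blocker of the cannabinoid receptor CB1 or of the nuclear receptor PPARγ. All mice were male C57BL/6N, aged 8 weeks. Both groups compared here carried the same lesion, 4 intraperitoneal injections of MPTP at 20 mg/kg and intervals of 2 h. From 1 week later, MPTP-SU mice received 4 injections of SUEHP, spread over 2 weeks, at GB34, an acupoint on the outer side of the leg, and MPTP-Veh mice received saline at the same point. Con mice received saline in place of MPTP, while 2 further groups received MPTP and SUEHP together with SR141714A (the labels' spelling of the CB1 antagonist) at 3 mg/kg (MPTP-SU+S) or the PPARγ inhibitor T0070907 at 5 mg/kg (MPTP-SU+T). No group received SUEHP without MPTP. The segment of cord that was sequenced is not given in the sources used here, and the labels number the replicates without saying whether each came from its own mouse, so that p-values measure the spread between these samples alone.

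The dorsal horn of the spinal cord receives the central branches of sensory neurons whose cell bodies lie in the dorsal root ganglia. Those afferents release glutamate together with peptides such as substance P and calcitonin gene-related peptide, and local neurons that use GABA, glycine or opioid peptides restrain what is passed on to the brain. Microglia and astrocytes respond to strong input, in part through p38 MAP kinase, and CB1 on afferents and interneurons lowers transmitter release. The cord is wrapped in leptomeninges, a fibroblast layer rich in collagens, solute transporters and retinoic acid synthesis, and carries spinal roots myelinated by Schwann cells, both of which can be dissected with it.

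Counts per library ranged from 15849410 to 16516202 in MPTP-SU and from 15405823 to 16325083 in MPTP-Veh, and mitochondrially encoded genes took 15.1% to 16.5% and 14.3% to 16.4% of them. All 8 libraries followed the median profile of the remaining spinal cord libraries, with Spearman's rho of 0.996 to 0.997 across genes. All 19 motor and cholinergic neuron genes passed the filter on low counts, as did all 19 Hox genes of paralogue groups 4 to 9. Midbrain values of these genes were not set beside them, so that passing the filter is not by itself a check of the tissue label. MPTP-SU replicate 2 stood apart for genes of sensory neuron cell bodies. Of 21 genes on a list for dorsal root ganglion neurons, 17 were highest of the 8 libraries in that replicate. Scn10a, a sodium channel of nociceptors, was at 5.20 CPM (counts scaled to library size) there and at 0 to 0.126 CPM in the other 7, and Avil, an actin-binding protein of sensory neurons, was at 5.83 CPM against 0 to 0.365 CPM. Values without that replicate, or ranges over alternative fits that include the fit without it, are therefore given beside the main results it touches.

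No gene differed between MPTP-SU and MPTP-Veh at the threshold for a DEG (adjusted p below 0.05 and more than 1.5-fold). The test was edgeR's quasi-likelihood test with Benjamini-Hochberg adjustment, fitted over all 20 spinal cord libraries, and the smallest adjusted p among the 16682 genes tested was 0.999. DESeq2, limma-voom and limma on log2 CPM also called 0. An unadjusted p below 0.05 was reached by 636 genes (3.81% of those tested), of which 296 (1.77%) were higher and 340 (2.04%) lower in MPTP-SU. With the fold threshold added, 95 (0.569%) were higher and 88 (0.528%) lower. By DESeq2, limma-voom and limma on log2 CPM the genes at an unadjusted p below 0.05 numbered 516, 649 and 632. The 4 MPTP-SU values lay wholly above or wholly below the 4 MPTP-Veh values for 546 genes (3.27%), 235 higher (1.41%) and 311 lower (1.86%). Of these, 43 (0.258%) were higher and 36 (0.216%) lower by more than 1.5-fold. Those shares are the background for every count of members below. The lowest of 20 equal bins of p held the fewest genes, 636, and the highest held the most, 973. The median standard error of a log2 fold change was 0.10 over all genes and 0.07 over the 10049 genes at 10 CPM or more. In the same model, 0 DEGs were called in MPTP-Veh against Con, MPTP-SU against Con and MPTP-SU+S against MPTP-SU, with 2137 (12.8%), 1530 (9.17%) and 916 (5.49%) genes at an unadjusted p below 0.05. MPTP-SU+T against MPTP-SU gave 4 DEGs (0.024%) and 2015 such genes (12.1%). In the midbrain, MPTP-SU against MPTP-Veh gave 2237 DEGs (13.5%), and 572 of 16831 genes (3.4%) without MPTP-Veh replicate 4 of that tissue. That library stood apart, with mitochondrially encoded genes at 1.35% of its counts against 9.92% to 17.5% in other midbrain libraries, and it was left out after seeing the data.

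**Figure D1:**
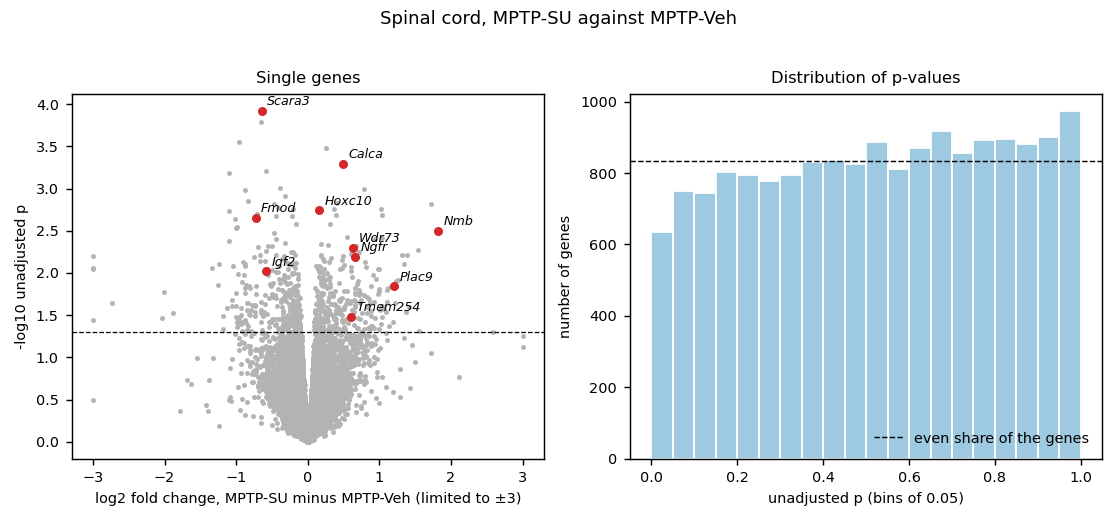
Left, log2 fold change (MPTP-SU minus MPTP-Veh, limited to ±3) against −log10 of the unadjusted p from edgeR's model for each of the 16682 genes tested in the spinal cord, with named genes in red and a dashed line at 0.05. Right, the number of genes in 20 equal bins of the unadjusted p, with a dashed line at an even share. Scara3 had the smallest p, and the bars grow from 636 genes in the first bin to 973 in the last.

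A model of the 8 libraries alone called 5 of 15997 genes (0.0313%). Nmb, Wdr73, Plac9 and Tmem254 rose and Fmod fell in that model, with adjusted p from 0.00168 (Tmem254) to 0.00535 (Wdr73) by edgeR's quasi-likelihood test. Igf2 (log2 fold change −0.58) and Ivns1abp (0.40), an actin-associated protein, had adjusted p of 0.00535 and 0.00532 by the same edgeR test but differed by less than 1.5-fold, so that 7 genes (0.0438%) passed the adjusted p alone. At an unadjusted p below 0.05 that model held 915 genes (5.72%). In edgeR's model of all 20 libraries none passed, with adjusted p of 0.999 each. The larger model takes its spread from the 12 libraries of the other groups as well. Each of the 5 genes ranged more widely in at least 1 of those groups than in MPTP-Veh or MPTP-SU. A small spread within the 8 libraries helps a gene to be called there, so that the choice of genes favours a wider range elsewhere. The share of all genes with such a range was not counted.

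Nmb and Wdr73 are adjacent protein-coding genes on chromosome 7. Nmb encodes neuromedin B, a bombesin-like peptide of sensory and itch pathways, and Wdr73 a WD-repeat protein. Nmb was at 0.791, 0.819, 0.609 and 0.591 CPM in MPTP-Veh replicates 1 to 4 and at 2.68, 3.07, 1.88 and 2.36 CPM in MPTP-SU. Every MPTP-SU library was above every MPTP-Veh library, although all 8 values were low. The log2 fold change was 1.82 (SE 0.55, 95% interval 0.68 to 2.96, unadjusted p = 0.0031 in edgeR's model of 20 libraries), and 1.70 without MPTP-SU replicate 2. Wdr73 was at 11.1, 9.07, 9.74 and 10.6 CPM in MPTP-Veh and at 16.9, 16.2, 14.3 and 15.6 CPM in MPTP-SU, again with no overlap, for a log2 fold change of 0.63 (SE 0.20). In Con the genes ranged more widely, from 1.13 to 4.69 CPM for Nmb and from 12.0 to 20.1 CPM for Wdr73, with replicate 1 lowest and replicate 3 highest for both. The MPTP-SU+T libraries ranged from 0.501 to 4.70 CPM for Nmb and from 9.33 to 22.2 CPM for Wdr73, replicate 2 being the highest for both. The other neighbours that were tested, Crtc3 (0.00), Iqgap1 (0.10), Zscan2 (0.05), Sec11a (0.03) and Zfp592 (−0.04), overlapped between the groups. In the midbrain the same contrast gave log2 fold changes of −0.15 for Nmb and 0.26 for Wdr73, and 0.14 and 0.52 without MPTP-Veh replicate 4 of the midbrain.

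Plac9, Tmem254 and Duxbl1 form a second group, on chromosome 14. Plac9 encodes a small secreted protein, Tmem254 a membrane protein and Duxbl1 a double homeobox factor. Each belongs to a family with 3 annotated copies there on GRCm38. In the counts, the copies Plac9a and Gm9780 correspond to the single symbol Plac9, Tmem254a and Tmem254c to Tmem254, and Duxbl2 to no symbol. How reads from the copies were assigned is not given in the sources used here. Tmem254 was at 22.6, 20.1, 19.7 and 18.3 CPM in MPTP-Veh and at 33.1, 30.7, 28.9 and 30.4 CPM with SUEHP (log2 fold change 0.61, SE 0.27). Plac9 was at 2.25, 1.70, 1.83 and 1.97 CPM in MPTP-Veh and at 4.43, 4.07, 5.16 and 4.22 CPM in MPTP-SU (1.20, SE 0.46). Duxbl1 was at 3.71, 2.84, 2.56 and 3.42 CPM in MPTP-Veh and at 5.99, 5.14, 4.92 and 5.47 CPM in MPTP-SU (0.78, SE 0.31). None of the 3 overlapped between the groups, and the next tested gene, Anxa11 (0.13), did. Con again spread widely for these genes, from 17.3 to 52.2 CPM for Tmem254 and from 1.99 to 9.56 CPM for Plac9, and the replicate that was lowest (1) and the one that was highest (3) were those named for Nmb and Wdr73. In MPTP-SU+T, replicate 2 was the highest for all 5 genes of both chromosomes, while the lowest was replicate 1 for Nmb and 4 for the others. The other groups did not share 1 order. The highest in MPTP-SU was replicate 2 for Nmb, 3 for Plac9 and 1 for Wdr73, Tmem254 and Duxbl1. In MPTP-SU+S it was replicate 1 for Plac9 and 4 for the others, and in MPTP-Veh replicate 2 for Nmb and 1 for the others. Tmem254 in the midbrain was at 12.8, 12.3, 13.1 and 14.6 CPM in MPTP-Veh and at 19.5, 18.0, 22.9 and 17.5 CPM in MPTP-SU, without overlap, for a log2 fold change of 0.56 (adjusted p = 0.11, edgeR's quasi-likelihood test), and 0.61 without MPTP-Veh replicate 4 of the midbrain. What sets the level of these genes in a library was not tested.

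The start sites of the genes called in the 8 libraries were read from RefSeq (GRCm38.p6) as windows of 300 bases, 250 before the start and 50 after it. They were searched for short motifs, and the copies of Tmem254 and of Plac9 were compared for shared sequence. The windows of the adjacent genes Nmb and Wdr73 were not compared with each other. The windows lie at chr7:80905013-80905312 (Nmb), chr7:80901220-80901519 (Wdr73), chr14:25927623-25927922 (Tmem254a) and chr14:25902844-25903143 (Plac9a), all on the minus strand, and at chr1:134037004-134037303 (Fmod) on the plus strand. Capitals mark GC boxes, GGGCGG on either strand.
Nmb: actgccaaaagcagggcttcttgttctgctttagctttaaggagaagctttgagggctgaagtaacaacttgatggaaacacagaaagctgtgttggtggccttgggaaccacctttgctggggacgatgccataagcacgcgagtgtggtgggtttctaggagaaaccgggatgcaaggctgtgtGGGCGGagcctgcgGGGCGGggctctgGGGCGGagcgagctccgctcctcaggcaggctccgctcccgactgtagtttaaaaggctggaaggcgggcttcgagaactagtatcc
Wdr73: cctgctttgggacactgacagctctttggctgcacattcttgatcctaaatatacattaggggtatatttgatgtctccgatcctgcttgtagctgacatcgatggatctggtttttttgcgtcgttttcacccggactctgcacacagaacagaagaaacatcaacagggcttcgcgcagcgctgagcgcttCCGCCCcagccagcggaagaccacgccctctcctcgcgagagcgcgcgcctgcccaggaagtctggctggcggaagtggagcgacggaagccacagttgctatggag
Tmem254a: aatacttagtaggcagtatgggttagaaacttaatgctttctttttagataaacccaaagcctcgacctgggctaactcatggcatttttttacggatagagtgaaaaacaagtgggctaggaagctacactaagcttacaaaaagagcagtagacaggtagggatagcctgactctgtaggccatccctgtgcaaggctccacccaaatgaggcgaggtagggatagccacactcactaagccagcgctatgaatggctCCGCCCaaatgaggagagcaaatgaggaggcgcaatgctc
Plac9a: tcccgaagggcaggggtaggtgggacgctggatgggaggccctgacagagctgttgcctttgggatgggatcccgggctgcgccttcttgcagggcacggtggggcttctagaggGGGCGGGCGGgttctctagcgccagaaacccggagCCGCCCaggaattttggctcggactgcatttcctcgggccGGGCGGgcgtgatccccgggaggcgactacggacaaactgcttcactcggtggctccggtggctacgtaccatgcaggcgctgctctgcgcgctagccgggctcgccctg
Fmod: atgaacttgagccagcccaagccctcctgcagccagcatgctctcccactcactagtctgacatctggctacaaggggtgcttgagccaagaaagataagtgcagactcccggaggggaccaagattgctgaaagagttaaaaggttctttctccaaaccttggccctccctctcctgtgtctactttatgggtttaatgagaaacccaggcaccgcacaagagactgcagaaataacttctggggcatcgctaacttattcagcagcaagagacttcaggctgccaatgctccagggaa
Nmb held 3 GC boxes, Plac9a 4 (2 of them overlapping), Wdr73 and Tmem254a 1 each and Fmod 0, where 35.7% of 32851 mouse promoter windows of this length hold at least 1. No match on either strand was found in the windows for the TATA box TATAAA (held by 13.6% of all windows), the cyclic AMP response element TGACGTCA (1.79%), the AP-1 site TGANTCA (7.81%), the E-box CACGTG (7.15%) or the nuclear receptor half-site AGGTCA (16.3%). The windows of Tmem254a and Tmem254c were identical over all 300 bases, and Tmem254b shared a stretch of 284 bases with them. Plac9b and Gm9780, another copy of Plac9, were likewise identical over 300 bases, with a shared stretch of 222 bases in Plac9a. Most of each window lies before the start site, so that the shared stretches do not show whether reads match more than 1 copy. That was not tested.

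**Figure D2:**
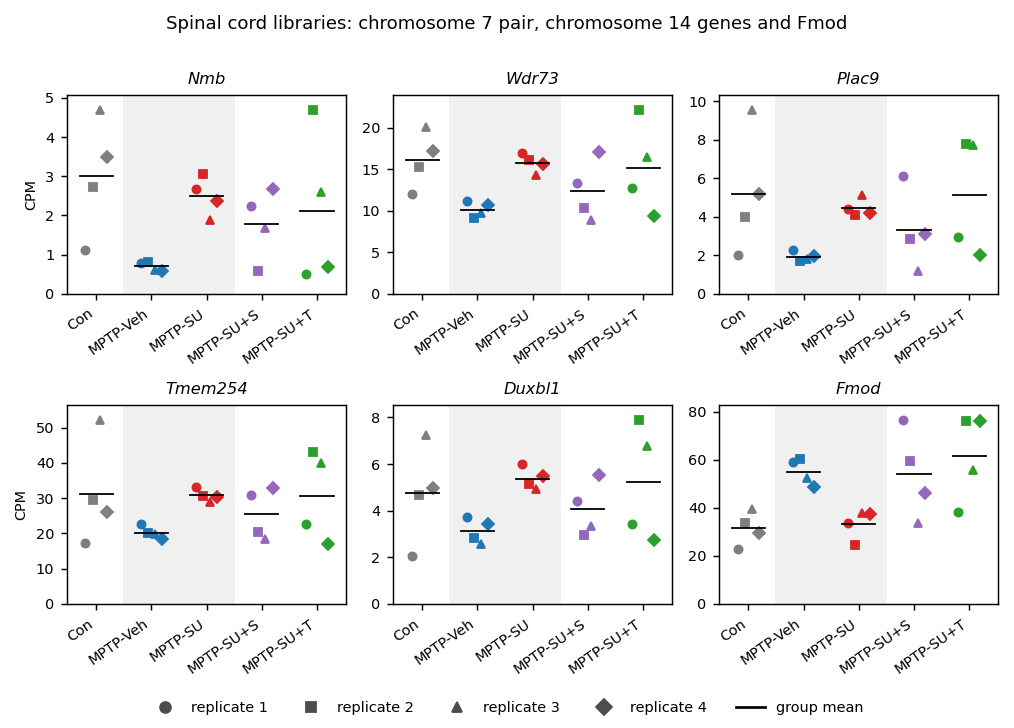
CPM of Nmb, Wdr73, Plac9, Tmem254, Duxbl1 and Fmod in the 20 spinal cord libraries by group, with marker shape for the replicate number, a line at the group mean and shading for the 2 groups compared. MPTP-Veh and MPTP-SU do not overlap, by which these genes were chosen or named, and Con and MPTP-SU+T spread more widely than either for the genes of chromosomes 7 and 14.

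Fmod, which encodes the collagen-binding proteoglycan fibromodulin, was lower with SUEHP. It was at 59.0, 60.3, 52.5 and 48.5 CPM in MPTP-Veh and at 33.5, 24.5, 37.6 and 37.3 CPM with SUEHP (log2 fold change −0.73, SE 0.21, unadjusted p = 0.0022 in edgeR's model of 20 libraries). The groups did not overlap, and Con, at 22.7 to 39.5 CPM, lay with MPTP-SU. Fmod belongs to a list of leptomeningeal fibroblast genes, and most of that list had lower values in MPTP-SU. Of 47 members tested, 38 were lower and 9 higher, 15 were lower and 1 higher at an unadjusted p below 0.05, and 8 were lower and 1 higher without overlap. The median log2 fold change was −0.19, where the median over all genes tested was 0.00. None passed the adjusted threshold over all genes. In tissue of mixed cells, fewer cells of a type and less RNA per cell cannot be told apart.

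The members without overlap, several of them named after their values were seen, included secreted factors, transporters and transcription factors. Igf2, an insulin-like growth factor made by the leptomeninges, was at 113, 126, 114 and 108 CPM in MPTP-Veh and at 64.1, 72.4, 95.4 and 75.7 CPM with SUEHP (log2 fold change −0.58, SE 0.21). Aebp1, a collagen-binding matrix protein, was at 61.6 to 80.5 CPM and at 45.6 to 58.0 CPM (−0.41, SE 0.15). For both genes the lowest MPTP-Veh library was above the highest MPTP-SU library, and Con, at 57.5 to 93.7 CPM for Igf2 and 42.8 to 60.5 CPM for Aebp1, lay near MPTP-SU. Slc22a6, an organic anion transporter, was at 1.34, 3.59, 1.64 and 2.43 CPM in MPTP-Veh and at 0.811, 0.627, 1.21 and 1.12 CPM in MPTP-SU (−1.24, SE 0.43). Aldh1a2, which makes retinoic acid, was at 15.0, 19.7, 14.1 and 15.2 CPM and at 13.7, 11.2, 12.6 and 9.94 CPM (−0.43, SE 0.18). The imino acid transporter Slc6a20a (−0.72), the forkhead factor Foxc2 (−0.73) and the GABA transporter Slc6a13 (−0.46) also did not overlap and were lower. Slc13a4, a sulphate transporter (−0.91), and Gjb2, a gap junction protein (−0.50), were lower with overlap.

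The list was not uniform. Apod, a lipid carrier and its most abundant member, was at 651 to 718 CPM in MPTP-Veh and at 721 to 846 CPM with SUEHP (log2 fold change 0.16, no overlap), and Ogn, a small proteoglycan, had a log2 fold change of 0.56. The fibrillar collagens overlapped, Col1a1 ranging from 48.6 to 77.1 CPM in MPTP-Veh and from 51.4 to 83.6 CPM in MPTP-SU. The summed level of the list overlapped between the groups, at 1476 to 1732 CPM in MPTP-Veh and 1465 to 1839 CPM in MPTP-SU, and so did the mean of log2 CPM over its members. MPTP-Veh replicate 2 was the highest of the 8 libraries for 22 of the 48 genes on the list, and without it the median was −0.17. With any 1 of the 8 libraries left out and in the other alternatives, the list's median stayed between −0.26 and −0.17. In MPTP-Veh against Con, which shares the MPTP-Veh libraries, the median over the same members was 0.28, and in MPTP-SU+S and MPTP-SU+T against MPTP-SU, which share the MPTP-SU libraries, it was 0.33 and 0.31. Shared libraries favour the opposite sign in these contrasts. The mean of log2 CPM over the list was 3.98, 3.86, 3.11 and 3.35 in MPTP-SU+S replicates 1 to 4. It was 3.21, 4.00, 3.57 and 3.65 in MPTP-SU+T, beside 3.13 to 3.50 in MPTP-SU, so that both groups reached into the MPTP-SU range.

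**Figure D3:**
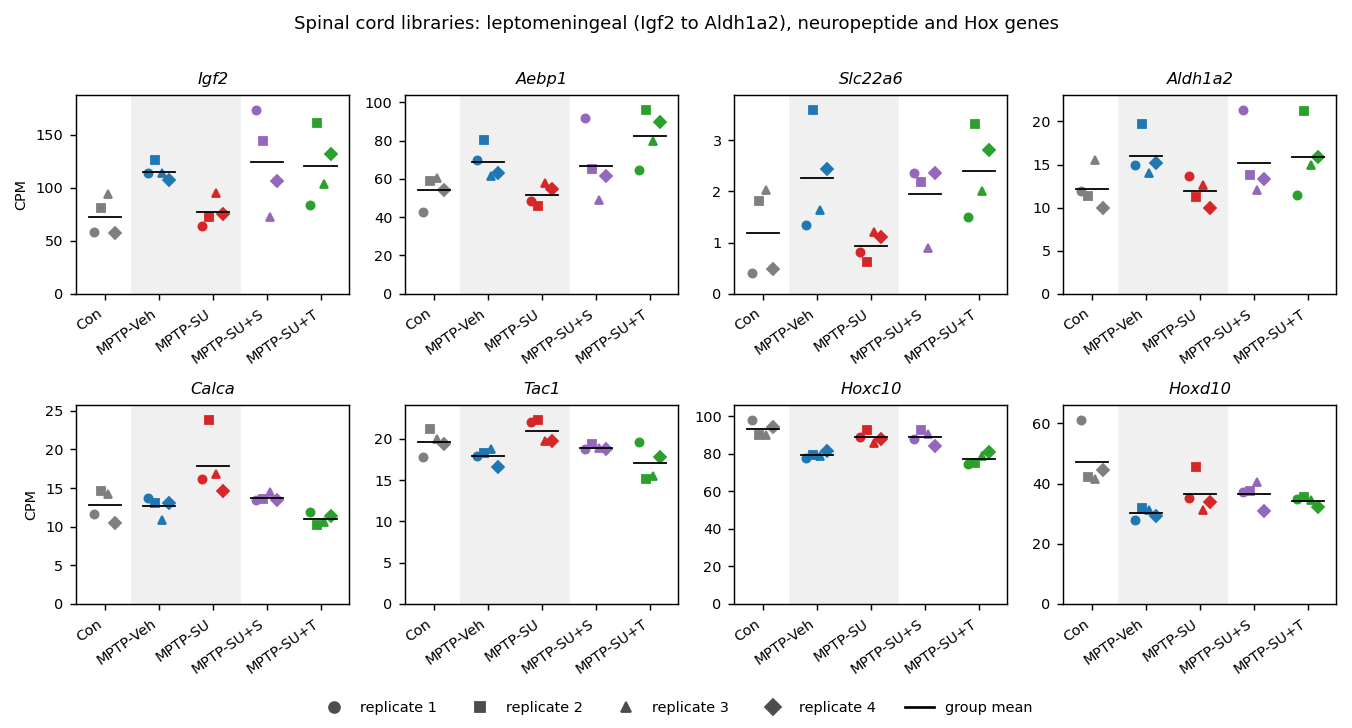
CPM of 4 leptomeningeal genes (Igf2, Aebp1, Slc22a6, Aldh1a2), 2 sensory neuropeptide genes (Calca, Tac1) and 2 Hox genes (Hoxc10, Hoxd10) in the 20 spinal cord libraries by group, with marker shape for the replicate number, a line at the group mean and shading for the 2 groups compared. MPTP-SU lies below MPTP-Veh for the first 4 genes and above it for Calca, Tac1 and Hoxc10, while the groups overlap for Hoxd10.

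Scara3, a scavenger receptor, had the smallest unadjusted p of all genes. It was at 8.46, 10.3, 8.64 and 9.19 CPM in MPTP-Veh and at 5.74, 5.51, 5.52 and 6.58 CPM in MPTP-SU, with no overlap. Its log2 fold change was −0.65 (SE 0.14, unadjusted p = 0.00012 in edgeR's model). It was 0.45 in MPTP-Veh against Con, which shares the MPTP-Veh libraries, and 0.84 in MPTP-SU+T against MPTP-SU, which shares the MPTP-SU libraries. A gene chosen for its difference between MPTP-SU and MPTP-Veh is prone to the opposite sign in both. Hic2, a transcriptional repressor, was at 5.36, 4.98, 6.45 and 5.78 CPM in MPTP-Veh and at 3.18, 3.95, 3.82 and 3.35 CPM in MPTP-SU (−0.66, SE 0.15). Itih2, a hyaluronan-binding serum protein, was at 10.1, 11.5, 6.76 and 6.96 CPM and at 3.93, 3.20, 6.74 and 4.29 CPM (−0.96, SE 0.22). MPTP-SU replicate 3 came within 0.1 CPM of MPTP-Veh replicate 3 for Itih2, whereas the groups were well apart for Hic2. Rbp4, the carrier of retinol, was at 9.61, 9.45, 7.61 and 8.34 CPM in MPTP-Veh and at 4.87, 4.57, 6.01 and 5.84 CPM in MPTP-SU (−0.72, SE 0.21). The adaptor Sla (−0.83), the adhesion protein Mpzl2, Gm3005, Gm5424, Gm30783 and BC037032 were, with Fmod, further genes among the 12 lower genes with the smallest p whose groups did not overlap.

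Among the 12 higher genes chosen in the same way, Ngfr and Trarg1 had known roles in nerve and fat. Ngfr, the p75 neurotrophin receptor of sensory fibres and Schwann cells, was at 3.47, 3.15, 3.04 and 2.82 CPM in MPTP-Veh and at 4.55, 6.83, 3.64 and 4.78 CPM with SUEHP (log2 fold change 0.66, SE 0.22). Trarg1, which regulates trafficking of a glucose transporter in adipocytes, was at 0.426, 0.567, 0.609 and 0.394 CPM and at 1.19, 3.57, 1.21 and 0.683 CPM (1.72, SE 0.48). MPTP-SU replicate 2 was the highest library for both, and without it the log2 fold changes were 0.47 and 1.03. The phosphatase gene Ppm1j (1.04, and 0.77 without replicate 2), Klhdc9 (0.60), Fam83f (0.97), Gm3752 (0.78), Gm54133 (1.03), Gm54266 (1.04), Gm32296 (0.67) and 5033404E19Rik (1.32) were the others beside Nmb and Wdr73. Of these 8, Gm3752 alone reached 3 CPM in any of the 8 libraries.

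The study followed c-Fos, CD11b, phosphorylated p38 and GFAP as proteins in the dorsal horn of the cord. It stained BDNF in the substantia nigra and hippocampus, with no staining of the cord reported, and followed CB1 and PPARγ as targets. The genes of these proteins and targets were read here as RNA of cord tissue whose segment is not given. Neither the region nor the molecule is thus the same as in the stainings. With Aif1 added as a further microglial marker these were 8 genes, of which Bdnf alone did not overlap between the groups. Bdnf, a neurotrophin released by afferents and microglia, was at 7.06, 6.24, 7.37 and 5.71 CPM in MPTP-Veh and at 7.74, 9.27, 8.19 and 7.51 CPM in MPTP-SU. Every MPTP-SU library was higher (log2 fold change 0.31, SE 0.12, 95% interval 0.06 to 0.56, exact two-sided permutation p = 0.0286, the smallest that 4 against 4 allow). Over the alternatives, among them MPTP-SU replicate 2 left out, the log2 fold change of Bdnf ranged from 0.24 to 0.37. In MPTP-Veh against Con, which shares the MPTP-Veh libraries, it was −0.35. Gfap, the astrocyte filament, was at 1447, 1252, 1299 and 1340.5 CPM in MPTP-Veh and at 1032, 1125, 1325 and 1266 CPM in MPTP-SU. Its groups overlapped (−0.17, SE 0.08, 95% interval −0.33 to −0.01, exact permutation p = 0.143). Its log2 fold change was 0.29 in MPTP-Veh against Con, which again shares the MPTP-Veh libraries.

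Fos, an immediate early gene that follows neuronal activity, was at 7.79, 13.7, 9.31 and 14.4 CPM in MPTP-Veh and at 7.80, 10.3, 12.3 and 9.44 CPM in MPTP-SU. The groups lay over each other, with a log2 fold change of −0.18 (SE 0.21, 95% interval −0.61 to 0.25, exact permutation p = 0.543). Itgam, which encodes CD11b, was at 14.5, 17.6, 14.1 and 16.2 CPM and at 15.3, 17.0, 17.6 and 16.5 CPM (0.09, 95% interval −0.10 to 0.28). Aif1 was at 4.14, 4.10, 3.41 and 4.14 CPM and at 4.12, 3.76, 4.55 and 4.97 CPM (0.14, 95% interval −0.19 to 0.47). Both microglial genes overlapped between the groups, and their intervals leave a difference of 1.5-fold outside. Mapk14, which encodes p38α, was at 42.6, 42.9, 45.1 and 44.9 CPM in MPTP-Veh and at 39.5, 45.9, 39.6 and 41.7 CPM in MPTP-SU (−0.07, 95% interval −0.20 to 0.05). Phosphorylation of p38 is not measured by RNA. Cnr1, which encodes CB1, was at 43.0, 50.7, 47.9 and 48.5 CPM and at 46.5, 43.7, 45.3 and 44.0 CPM (−0.08, 95% interval −0.24 to 0.07). Pparg was at 1.13 to 1.64 CPM and at 1.31 to 2.12 CPM (0.22, 95% interval −0.25 to 0.69), an interval that holds a 1.5-fold difference.

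**Figure D4:**
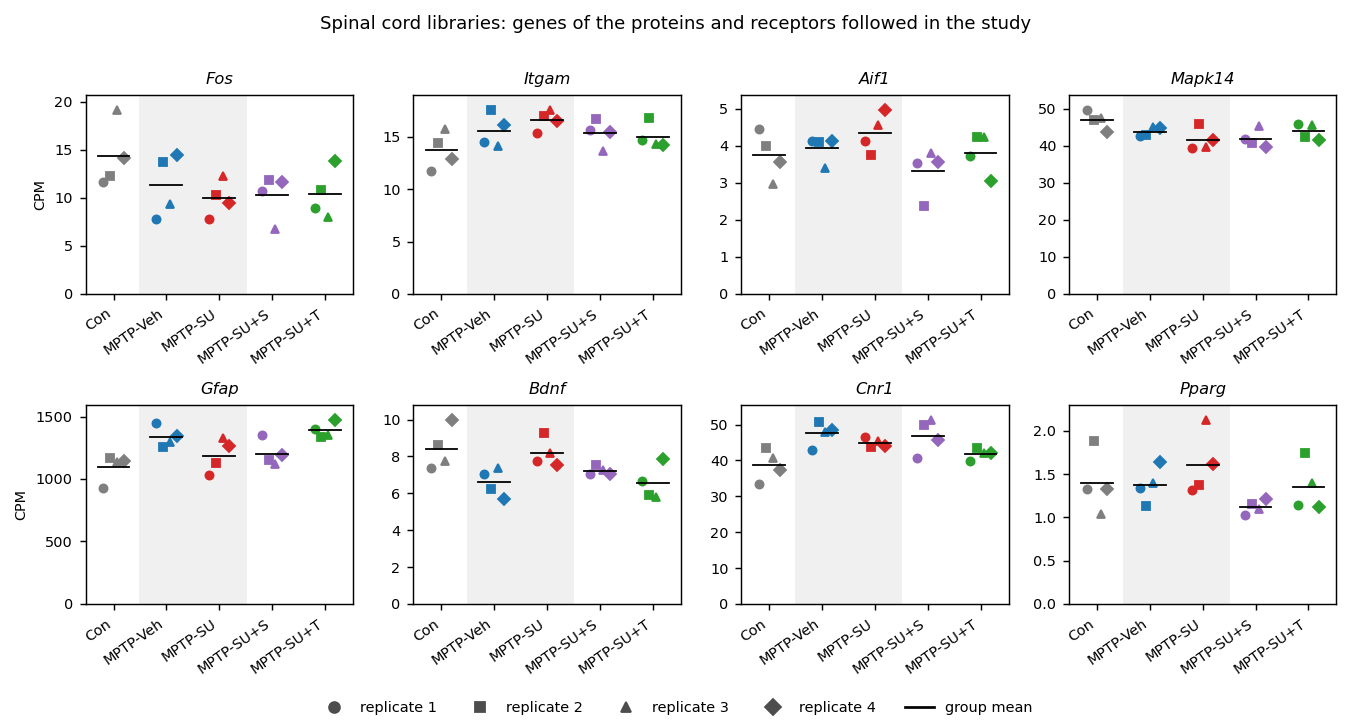
CPM of Fos, Itgam, Aif1, Mapk14, Gfap, Bdnf, Cnr1 and Pparg in the 20 spinal cord libraries by group, with marker shape for the replicate number, a line at the group mean and shading for the 2 groups compared. Bdnf is the 1 gene whose MPTP-SU values (7.51 to 9.27 CPM) all lie above its MPTP-Veh values (5.71 to 7.37 CPM).

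Neuropeptide genes of the dorsal horn and of sensory neurons were mostly higher in MPTP-SU. Of 27 tested, 18 were higher and 9 lower, with 3 higher and 0 lower at an unadjusted p below 0.05 and the same 3 without overlap, namely Calca, Tac1 and Nmb. The median log2 fold change was 0.07 (0.04 to 0.08 over the alternatives). The summed level did not overlap, at 484.5 to 522.3 CPM in MPTP-Veh and 530.4 to 542.7 CPM in MPTP-SU, beside 516.7 to 559.7 CPM in Con. Calca, the gene of calcitonin gene-related peptide, was at 13.8, 13.1, 10.8 and 13.1 CPM in MPTP-Veh and at 16.2, 23.8, 16.8 and 14.7 CPM in MPTP-SU. The log2 fold change was 0.49 (SE 0.12, unadjusted p = 0.00051 in edgeR's model), and 0.32 without replicate 2, the highest. Tac1, the gene of substance P, was at 17.9, 18.3, 18.8 and 16.6 CPM and at 22.1, 22.3, 19.7 and 19.7 CPM (0.23, SE 0.08, and 0.20 without replicate 2). Penk (0.07), Pdyn (−0.01), Sst (0.04), Npy (0.14) and Cck (0.07), genes of opioid and other peptides of dorsal horn interneurons, had unadjusted p from 0.21 to 0.93 in edgeR's model.

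Genes of dorsal root ganglion neurons were high in 1 library. Of 21 on the list, 11 were tested, 9 higher and 2 lower, with 5 higher at an unadjusted p below 0.05 and 2 of them (Calca and Pou4f1) without overlap. The median was 0.20, and 0.06 without MPTP-SU replicate 2. Pirt, a regulator of the channel TRPV1, was at 1.40, 1.89, 1.58 and 1.58 CPM in MPTP-Veh and at 1.68, 7.08, 1.40 and 1.43 CPM in MPTP-SU. Fxyd2, a sodium pump subunit, was at 1.03, 0.756, 0.791 and 0.657 CPM and at 1.06, 4.20, 1.09 and 0.621 CPM. In both, replicate 2 alone lay above the MPTP-Veh range by a wide margin. Pou4f1, a sensory transcription factor also present in the cord, had a log2 fold change of 0.28, and of 0.14 without that replicate. The summed list was at 170.8 to 191.4 CPM in MPTP-Veh and at 248.6 CPM in MPTP-SU replicate 2, beside 184.2 CPM in replicate 1, the lowest of MPTP-SU. The part of ganglion tissue in the values of Calca, Tac1, Ngfr and Bdnf was not tested.

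Schwann cell and spinal root genes were mostly higher, with overlap throughout. Of 20 tested, 17 were higher and 3 lower, 2 (Scn7a, 0.45, and Pmp22, 0.52) at an unadjusted p below 0.05 and 0 without overlap, and the median was 0.44 (0.29 to 0.55 over the alternatives). Pmp22, a protein of peripheral myelin, was at 492, 467, 298 and 324 CPM in MPTP-Veh and at 567, 627, 709 and 370 CPM in MPTP-SU. MPTP-SU replicate 3 was the highest of the 8 libraries for 15 of the 20 genes, and MPTP-SU replicate 4 lay within the MPTP-Veh range for Pmp22. Mbp (−0.06), Sox10 (−0.03) and Erbb3 (0.01) on this list are also expressed by oligodendrocytes or their precursors. Con ranged from 285 to 682 CPM for Pmp22, and the amount of root tissue in each library was not tested.

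Hox genes of the paralogue groups 10 to 13, which mark lumbar and sacral levels of the cord, were higher in MPTP-SU. Of 12 on the list, 8 were tested and all 8 were higher, 4 at an unadjusted p below 0.05 and 1 without overlap, with a median log2 fold change of 0.34. Hoxc10 was at 77.6, 79.4, 78.9 and 81.5 CPM in MPTP-Veh and at 88.9, 92.5, 85.5 and 88.0 CPM in MPTP-SU (0.16, SE 0.05, unadjusted p = 0.0018 in edgeR's model). Hoxd10 was at 28.0, 32.0, 31.1 and 29.2 CPM and at 35.2, 45.4, 31.1 and 33.7 CPM (0.27, SE 0.11). Both were highest in MPTP-SU replicate 2, and without it they were 0.14 and 0.15. Hoxc12 (1.18) and Hoxc13 (1.37, and 0.92 without replicate 2) were at 2.44 CPM or less. Summed over the list, MPTP-SU (153.5 to 192.5 CPM) lay just above MPTP-Veh (144.5 to 152.4 CPM), and Con ranged from 179.3 to 226.5 CPM. The mean of log2 CPM over the list overlapped between the groups. Replicate 2 held the highest value for 7 of the 12 genes, and the median without it was 0.17. Hox genes of more rostral groups differed less, with medians of 0.01 over 12 genes of groups 4 to 7 and 0.07 over 7 genes of groups 8 and 9, of which Hoxa9 (0.14) did not overlap. Hox genes in the adult cord vary along its length, and whether the libraries differ in the length of cord that each holds was not tested.

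Receptors and channels of pain transmission gave few differences. Of 27 neuropeptide and opioid receptor genes, 12 were higher and 15 lower, 1 higher (Tacr1, the substance P receptor, 0.17) and 3 lower at an unadjusted p below 0.05 and 3 lower without overlap. Npr3, a natriuretic peptide receptor, was at 8.03, 10.8, 10.2 and 9.19 CPM in MPTP-Veh and at 7.05, 7.39, 8.07 and 6.83 CPM in MPTP-SU, which overlap by 1 library (−0.38, SE 0.10). Oprl1, the nociceptin receptor, was at 52.7, 49.7, 51.1 and 48.3 CPM and at 47.6, 45.0, 44.1 and 46.2 CPM (−0.14, SE 0.06), without overlap. Sstr2, a somatostatin receptor, did not overlap either (−0.25, SE 0.11), nor did Adcyap1r1 (−0.10), a receptor of the peptide PACAP. Of 28 genes for GABA receptors, synthesis and transport, 14 were higher and 14 lower with a median of 0.00. The mean of log2 CPM over this list was lower in every MPTP-SU library (6.09 to 6.14) than in any MPTP-Veh library (6.16 to 6.21). The group means differed by −0.06, and the summed level of the list overlapped. Each member counts alike in that mean, so that a few members with large differences can move it without a shift of the median. Which members carried the difference was not tested. The lower genes at an unadjusted p below 0.05 were Slc6a13, which is also on the leptomeningeal list, and Gabrr2 (−0.85), at 1.10 CPM or less. None of 10 glycine receptor and transport genes reached an unadjusted p below 0.05, with log2 fold changes from −0.08 to 0.13. Of 33 glutamate receptor and transport genes 2 did, both higher, namely Grik1 (0.18), a kainate receptor subunit, and Gria1, an AMPA receptor subunit, at 147 to 152 CPM in MPTP-Veh and 155 to 168 CPM in MPTP-SU (0.10). Slc1a1, a neuronal glutamate transporter, was higher without overlap (0.10). Among 23 voltage-gated calcium channel genes, Cacna1c (0.15) and Cacna1g (−0.13) were at an unadjusted p below 0.05 in edgeR's model with overlap.

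The endocannabinoid genes had a median of −0.07, with 5 of 17 higher, 12 lower, 0 at an unadjusted p below 0.05 and 2 lower without overlap. The mean of log2 CPM over the list was 4.95 to 5.00 in MPTP-SU and 5.03 to 5.07 in MPTP-Veh, without overlap, while the summed level overlapped. The genes without overlap were Pla2g4e, an acyltransferase of N-acylethanolamine synthesis (−0.33), and Gdpd1, a phosphodiesterase of the same route (−0.10). Among 17 genes for PPAR receptors and partners 0 reached an unadjusted p below 0.05. Of 27 PPAR target genes 16 were higher and 11 lower with a median of 0.02. Glycosphingolipid synthesis genes divided evenly, 23 of 44 higher and 21 lower with a median of 0.01. The fucosyltransferase Fut4 (0.80), at 2.12 CPM or less, and the lactosylceramide-extending enzyme B3gnt5 (0.68) were higher at an unadjusted p below 0.05, both with overlap. The sialyltransferases St6galnac3 (−0.19) and St6galnac4 (−0.19) were lower at that p, the first without overlap. The galactosyltransferases B4galt1 (0.16, higher) and B4galt5 (−0.08, lower) did not overlap but did not reach it.

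Genes of microglia and inflammation showed no common direction. Of 25 microglial genes 14 were higher and 11 lower with a median of 0.02. Tyrobp, a signalling adaptor, was at 5.48, 4.41, 5.36 and 6.70 CPM in MPTP-Veh and at 4.55, 4.26, 4.25 and 4.22 CPM in MPTP-SU (−0.34, SE 0.13), while Ly86 was higher without overlap (0.22, SE 0.15). The p38 pathway had 8 genes higher and 15 lower of 23, with a median of −0.04 and 3 lower without overlap. Mknk1, a kinase activated by p38, was at 22.5, 26.0, 21.6 and 21.7 CPM in MPTP-Veh and at 20.8, 19.7, 19.5 and 20.2 CPM in MPTP-SU (−0.19, SE 0.07). Dusp10, a phosphatase that acts on p38, was at 12.0, 12.0, 12.5 and 10.6 CPM and at 10.1, 8.21, 10.3 and 10.4 CPM (−0.27, SE 0.10). Both genes were lower without overlap, as was Mapkapk5 (−0.10), a kinase that p38 activates. Of 35 cytokine and cytokine response genes 15 were higher and 20 lower, and Nfkb1, a subunit of NF-κB, was lower without overlap (−0.18). No inflammasome gene of 15 reached an unadjusted p below 0.05, and their median was 0.05. Medians were 0.01 over 25 interferon-stimulated genes, −0.02 over 23 astrocyte genes and −0.01 over 20 oligodendrocyte genes. Of the astrocyte genes, Lcn2, also a neutrophil gene, was at 0.591 to 1.70 CPM in MPTP-Veh and 1.40 to 3.76 CPM in MPTP-SU (0.88). None of 25 immediate early genes reached an unadjusted p below 0.05, and their median was 0.00.

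Among 21 neurotrophin and Trk signalling genes, 10 were higher and 11 lower. Ngfr, Bdnf and the ciliary neurotrophic factor gene Cntf (0.54) were higher at an unadjusted p below 0.05 in edgeR's model, and 1 gene was lower, without overlap. Log2 fold changes over the list ran from −1.06 to 0.66, so that its largest difference was a lower value. Cntf was at 9.43, 6.74, 5.97 and 5.84 CPM in MPTP-Veh and at 9.86, 10.2, 13.2 and 7.45 CPM in MPTP-SU, with overlap. Of 21 retinoid genes 11 were higher and 10 lower, and the 3 lower at an unadjusted p below 0.05 were Rbp4, Aldh1a2 and Cyp26b1 (−0.66), which carry retinol, make retinoic acid and degrade it. TGF-beta and BMP genes had 16 of 42 higher and 26 lower with a median of −0.03, Thbs1 (−0.56) and Bmp6 (−0.41) being lower and Id4 (0.12) higher at an unadjusted p below 0.05.

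Lists for tissue beside the cord and for cell state completed the comparison. Blood and marrow genes had a median of 0.31 over 18 genes (0.10 to 0.55 over the alternatives), with summed levels of 450 to 744 CPM in MPTP-Veh and 429.5 to 750 CPM in MPTP-SU. Skeletal muscle genes had a median of −0.07 over 38 genes, which ranged from −0.41 to 0.37 over the alternatives. The summed levels of both lists overlapped between the groups, skeletal muscle at 174 to 536 CPM in MPTP-Veh and at 252 to 396 CPM with SUEHP. Fat tissue genes had a median of 0.07 over 12 genes, of which 9 were higher and 3 lower. An unadjusted p below 0.05 was reached by 2, both higher, and 2 were higher without overlap, Trarg1 (1.72) among them. Their summed level overlapped, at 682 to 746 CPM in MPTP-Veh and 703 to 736 CPM in MPTP-SU. Lep, a defining adipocyte gene, was listed at 0 in all 8 libraries. Medians were 0.02 over 17 choroid plexus and ependymal genes, with Otx2 listed at 0 throughout, 0.02 over 14 cartilage and bone genes, 0.01 over 24 vessel genes and 0.05 over 19 motor and cholinergic neuron genes. Circadian clock genes (0.00 over 20), glucocorticoid-induced genes (0.04 over 16), heat shock genes (0.05 over 16, 14 of them higher), mitochondrially encoded genes (0.04 over 13) and monoamine genes (−0.05 over 20) differed little.

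**Figure D5:**
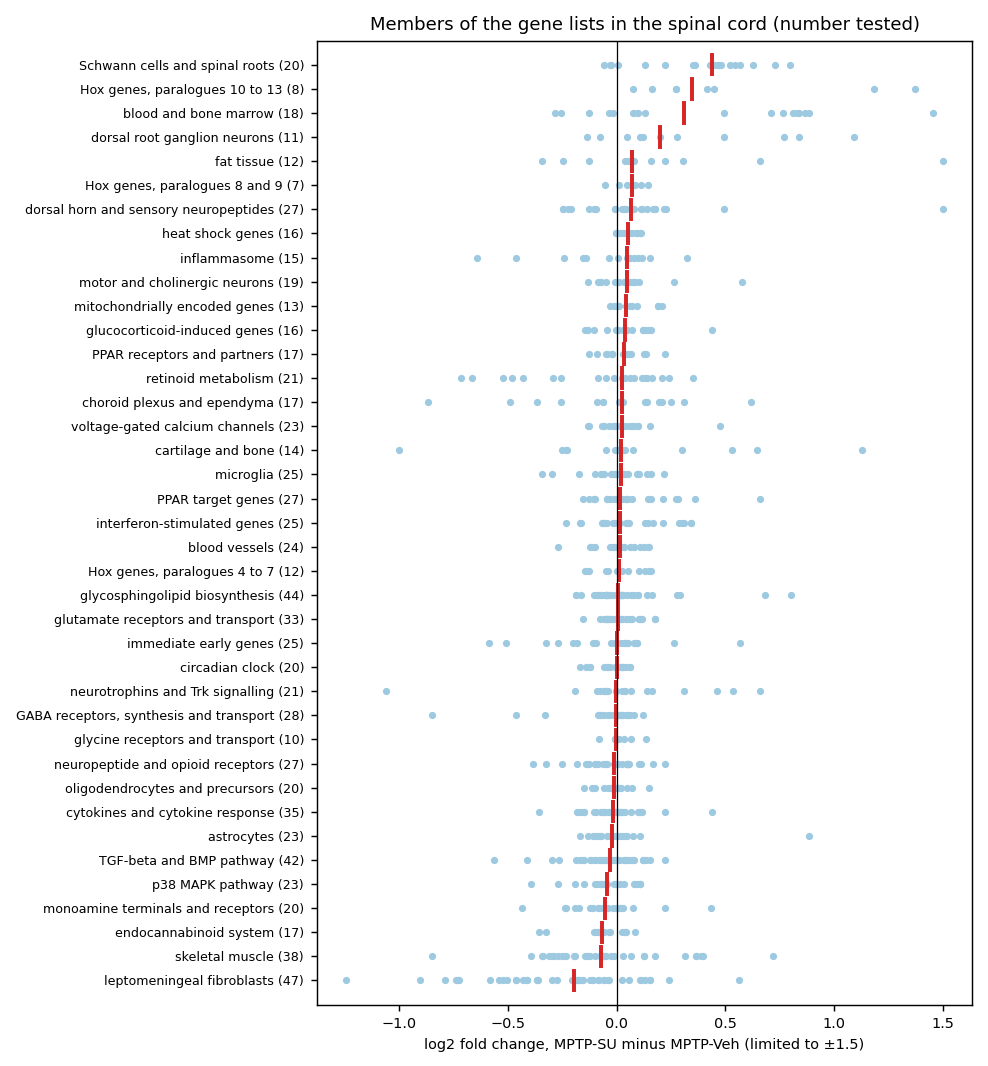
Log2 fold change (MPTP-SU minus MPTP-Veh, limited to ±1.5) of every tested member of the 39 gene lists in the spinal cord, with a red bar at the median of each list and the number tested in parentheses. Schwann cell genes (0.44) have the highest median and leptomeningeal genes (−0.19) the lowest, and most other medians lie near 0.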

How the data were processed

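Expression was measured by mRNA sequencing of polyadenylated RNA (CORALL RNA-Seq V2). Per the Methods, the authors used fastp for trimming, STAR for alignment and Salmon for quantification, and the submitters' processing notes also name GATK and GRCm39. The deposited files give 1 whole number per gene symbol with unequal totals, read here as rounded estimated counts that were not normalized. Use of molecular identifiers and tool versions are not given in the sources used here. The labels name TaKaRa RNAiso Plus and the Methods an iNtRON kit for RNA.

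Of 40213 symbols, 16682 passed filterByExpr over the 20 spinal cord libraries and were fitted with edgeR 4.0.16 (R 4.3.3, TMM, glmQLFit and glmQLFTest, 1 term for group). DEGs had a Benjamini-Hochberg adjusted p below 0.05 and more than 1.5-fold. CPM use TMM library sizes. Single genes were tested by an exact permutation test. Members, lists and tests were chosen with earlier results of these data known, and 39 lists were written by hand. Text genes are the 12 higher and 12 lower of smallest p without overlap and over 1.5-fold, genes called in the 8 libraries, the followed genes, the 3 members of smallest p per list, and neighbours. Others were named after their values were seen. Replicates differed beyond sampling noise (chi-square per degree of freedom 2.97 to 10.7). The fit was tested on simulated data. Alternatives were DESeq2 1.42.0, limma 3.58.1 (voom and log2 CPM), RLE factors, library size alone and without mitochondrial and haemoglobin genes, other count filters, a robust prior, a replicate block, the 8 libraries alone and each library left out. Promoter windows are RefSeq's on GRCm38.p6. Coordinates on GRCm39 were not used here. Some genes that the rule names are not reported here.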

Additional observations from a re-analysis of the deposited data

Results flagged for a closer look

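In 4 of 68 groups of 4 values checked for the genes with the smallest p-values and the followed genes, 1 library lay far from the other 3 relative to the range of the group, where chance gives about 1 in 20. Gm54266 was at 0.807 CPM in MPTP-SU replicate 4 and at 1.21 to 1.25 CPM in the other 3. Gm30783 was at 0.364 CPM in MPTP-SU replicate 3 against 0.621 to 0.627 CPM. BC037032 was at 0.807 CPM in MPTP-SU replicate 4 against 0.364 to 0.376 CPM. Aif1, a microglial gene, was at 3.41 CPM in MPTP-Veh replicate 3 against 4.10 to 4.14 CPM.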

How the results depend on the processing

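The count of DEGs stayed at 0 in 19 of 21 alternatives, among them each of the 8 libraries left out in turn. It was 5 in the 8 libraries alone and 10 in the 8 libraries alone with a replicate block, of which 5 were the same genes (Nmb, Wdr73, Fmod, Plac9 and Tmem254) and Igf2, Erdr1x, Gas2l3, 2210418O10Rik and LOC108168731 were added. Same-numbered libraries did not deviate together over all genes (r from −0.097 to 0.012). A pairing that touches few genes would not show in these correlations, so that they cannot exclude it. With a replicate block over all 20 libraries, 0 genes were DEGs, 675 were at an unadjusted p below 0.05 and 181 of these differed by more than 1.5-fold. Without a filter on low counts the genes at an unadjusted p below 0.05 numbered 1038, and 591 with the fold. With at least 10 counts in every library the latter were 65. Leaving out 1 library gave 529 to 724 genes at an unadjusted p below 0.05 and 168 to 220 with the fold, and the share of the latter that was higher in MPTP-SU ranged from 47.8% (without MPTP-Veh replicate 3) to 60.9% (without MPTP-Veh replicate 1), against 51.9% in the reported fit. Of the single genes, 2 changed sign when 1 library was left out, Gldc, a glycine cleavage enzyme, which ranged from −0.018 (without MPTP-Veh replicate 1) to 0.16, and Glra4, a glycine receptor subunit, from −0.056 (without MPTP-Veh replicate 4) to 0.42, neither past a threshold. Genes under 1 CPM rest on few counts, and differences under 1.5-fold in them could not be told from 0 at this depth. In the midbrain the count of DEGs went from 2237 to 572 without MPTP-Veh replicate 4, an alternative chosen after seeing the data.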
